A study of Homo sapiens with 6 samples.

Results

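Host noncoding RNAs are transcripts that carry small nucleolar RNAs (snoRNAs) or microRNAs inside their genes, and 48 of the 13696 genes in the deposited table belong to them by name. They are 23 small nucleolar RNA host genes (SNHG), the snoRNA hosts GAS5, ZFAS1, DANCR and EPB41L4A-AS1, and 21 microRNA host genes whose symbols begin with MIR and end with HG. Their levels were compared between hTERT RPE-1 cells given a camptothecin pre-dose (25 nM for 1 h, drug removed, harvest 24 h later) and untreated cells of the same line, with 3 libraries in each group. The comparison bears on what the low dose leaves behind in these RNAs 24 h later. Membership rests on the symbol alone. In the GENCODE annotation used for positions, SNHG32 and MIR1915HG are named C6orf48 and CASC10 and are typed as protein-coding.

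hTERT RPE-1 is a line of human retinal pigment epithelial cells immortalised with telomerase, and both groups come from this single line. Camptothecin traps topoisomerase 1 on DNA, where the trapped enzyme becomes an obstacle to transcription and replication. The series title concerns cullin 3 carrying NEDD8 in the adaptation of cells to topoisomerase 1 inhibitors, and the labels name no genetic change in either group. Sample titles of both groups carry the tag Top1, which they do not explain. Poly-A RNA was sequenced, and the labels leave unsaid whether replicates are separate cultures; the p-values below therefore reflect variation among these particular libraries, which could be technical.

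Most human snoRNAs lie in introns and are cut out of the intron after splicing, so the spliced host RNA is what remains once the snoRNA has left. Box C/D snoRNAs guide methylation of ribosomal RNA and box H/ACA snoRNAs guide its conversion of uridine to pseudouridine, while scaRNAs do the same for spliceosomal RNA in Cajal bodies. Many spliced snoRNA host RNAs hold only short open reading frames and are degraded by nonsense-mediated decay when they are translated, as is known for GAS5. MicroRNA hosts are cut by DROSHA with DGCR8 into hairpins, which DICER1 trims to mature microRNAs that guide Argonaute proteins to messenger RNAs by their seed, bases 2 to 8. Poly-A libraries measure the host RNAs, and neither the mature snoRNAs nor the mature microRNAs were measured here. A difference in a host RNA is therefore a difference in that host RNA only.

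The small RNAs inside the hosts are shown next, since they are what distinguishes the members from other noncoding RNAs. In RefSeq, on GRCh38.p14, 38 microRNA genes with 61 mature sequences lie within 23 of the 48 hosts, on the host's strand. All 21 microRNA hosts are among the 23, with the snoRNA hosts SNHG20 and DANCR as the other two. The mature sequences below belong to the microRNA hosts that the results turn on. Capitals mark the seed.
miR-34a-5p (MIR34AHG): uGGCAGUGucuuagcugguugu
miR-210-3p (MIR210HG): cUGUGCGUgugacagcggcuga
miR-22-3p (MIR22HG): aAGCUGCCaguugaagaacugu
miR-31-5p (MIR31HG): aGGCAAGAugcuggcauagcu
miR-221-3p (MIR222HG): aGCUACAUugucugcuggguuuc
miR-222-3p (MIR222HG): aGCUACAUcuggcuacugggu
The pair in MIR222HG shares its seed. A second group of hosts shares seeds between genes, and its sequences are given to show that share.
let-7a-5p (MIR100HG, MIRLET7A1HG, MIRLET7BHG): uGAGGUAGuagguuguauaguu
let-7b-5p (MIRLET7BHG): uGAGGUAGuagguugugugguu
let-7c-5p (MIR99AHG): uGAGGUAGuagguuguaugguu
miR-4458 (MIR4458HG): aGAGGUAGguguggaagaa
miR-4500 (MIR4500HG): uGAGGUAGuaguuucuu
miR-100-5p (MIR100HG): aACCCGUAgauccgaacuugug
miR-99a-5p (MIR99AHG): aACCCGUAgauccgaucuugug
In all, 6 of the hosts carry a microRNA with the let-7 seed in RefSeq. For MIRLET7A1HG this holds in RefSeq only. Its gene in the GENCODE annotation, chr9:94176458-94177892, is shorter and contains 0 microRNA genes. Let-7 microRNAs repress growth-promoting messenger RNAs such as those of RAS genes and HMGA2.

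Among the snoRNA hosts, the number of small RNAs per gene in RefSeq ran from 1 in hosts such as SNHG8 to 83 box C/D snoRNAs in SNHG14, which spans the imprinted Prader-Willi region and carries the SNORD115 and SNORD116 clusters. GAS5 holds 10 box C/D snoRNAs and 1 box H/ACA snoRNA, SNHG1 holds 8 box C/D snoRNAs, and SNHG3 holds 2 box H/ACA snoRNAs. The following snoRNA genes are printed as DNA from GRCh38, with positions from GENCODE release 29, because their hosts recur in the results below. In the box C/D snoRNAs the capitals mark box C (TGATGA) and box D (CTGA), and in the box H/ACA snoRNAs they mark the ACA that lies 3 bases from the end.
SNORD116-1 (SNHG14, chr15:25051477-25051571, plus strand): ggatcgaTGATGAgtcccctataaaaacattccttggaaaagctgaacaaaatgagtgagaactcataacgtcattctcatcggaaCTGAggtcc
SNORD25 (SNHG1, chr11:62855564-62855632, minus strand): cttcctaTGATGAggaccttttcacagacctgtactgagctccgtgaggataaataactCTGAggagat
SNORA73A (SNHG3, chr1:28507366-28507571, plus strand): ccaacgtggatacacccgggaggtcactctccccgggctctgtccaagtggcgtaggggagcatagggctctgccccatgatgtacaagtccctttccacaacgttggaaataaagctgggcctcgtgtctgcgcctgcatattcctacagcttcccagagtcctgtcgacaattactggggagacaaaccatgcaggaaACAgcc
SNORA73B (SNHG3, chr1:28508559-28508762, plus strand): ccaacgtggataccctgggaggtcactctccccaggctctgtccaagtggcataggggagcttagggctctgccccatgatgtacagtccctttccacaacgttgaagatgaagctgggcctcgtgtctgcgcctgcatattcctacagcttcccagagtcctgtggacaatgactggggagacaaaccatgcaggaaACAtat

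Known snoRNA hosts often start with a run of pyrimidines like that of ribosomal protein genes, the 5′ terminal oligopyrimidine motif, which ties translation of an RNA to growth signals. A start sequence was present in RefSeq for 44 of the 48 members. A C at the annotated start followed by 4 bases that were each C or T, read on the gene's strand only, was found in 7 of 23 snoRNA hosts (30.4%) and in 0 of 21 microRNA hosts. It was found in 1429 of all 35116 RefSeq start sequences (4.07%). That share counts sequences, whereas a host counted as a gene if any of its starts matched, so the shares are unlike measures. The 7 hosts were SNHG4, SNHG5, SNHG12, SNHG18, SNHG19, SNHG32 and ZFAS1, of which 4 are shown from 20 bases before the start, with capitals for the pyrimidine run that begins at it.
SNHG4 (chr5:139274081-139274120, plus strand): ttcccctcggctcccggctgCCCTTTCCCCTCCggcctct
SNHG12 (chr1:28581854-28581893, minus strand): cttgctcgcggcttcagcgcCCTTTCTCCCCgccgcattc
SNHG5 (chr6:85678714-85678753, minus strand): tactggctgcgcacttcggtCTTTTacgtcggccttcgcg
ZFAS1 (chr20:49278622-49278661, plus strand): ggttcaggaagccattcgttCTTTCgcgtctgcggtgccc
These are matches of letters at annotated starts, and the starts used in these cells were not measured.

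The libraries had effective totals of 26336941 to 31780391 reads, at which 3 counts correspond to 0.0944 to 0.114 CPM (counts scaled to the effective library total). All 48 members averaged at least 1 CPM, the limit for testing, which 13616 genes passed. Their lowest value in any library was 0.812 CPM, of MIR924HG, or 24 estimated reads. Both replicate 1 libraries stood apart from the other four on the first principal component, at -18.0 for pre-dose and -20.6 for untreated against 6.9 to 16.4, so results are also given for replicates 2 and 3 alone. CDKN1A, the p53 target that encodes the cell cycle inhibitor p21, had 217, 573 and 472 CPM in pre-dose libraries and 162, 229 and 233 CPM in untreated libraries. The pigment epithelium regulators MITF and OTX2 and the channel gene BEST1 were present, whereas RPE65, RLBP1, TYR, TYRP1 and PMEL were not among the listed genes. The simple epithelial keratin KRT8 lay between 869 and 979 CPM. KRT18 had 428, 414 and 413 CPM in pre-dose libraries and 431, 455 and 461 CPM in untreated libraries, without overlap, and was lower in replicates 2 and 3 alone by limma (-0.15, adjusted p 0.0198). HBB, a blood marker, had 16, 13.7 and 16.1 CPM in pre-dose libraries and 19.0, 17.2 and 17.9 CPM in untreated libraries, also without overlap (-0.23, unadjusted p 0.0311 by limma). The part of these markers in the results was not tested. Of the other markers of blood and neurons, SYT1 and SNAP25 were present, and PTPRC, CD3E and RBFOX3 were not among the listed genes.

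snoRNA hosts made up most of the host RNA. Summed over the 27 snoRNA hosts, the level was 1042, 987 and 984 CPM in pre-dose libraries and 1041, 982 and 962 CPM in untreated libraries. The 21 microRNA hosts together reached 219, 260 and 247 CPM in pre-dose libraries and 217, 250 and 248 CPM in untreated libraries. CPM are relative levels in the RNA of a whole culture, so fewer cells with an RNA and less of it per cell cannot be told apart. The sums of the groups overlapped for both classes, and snoRNA hosts held at least 79.1% of the members' CPM in every library. The replicate 1 libraries had the lowest sum of microRNA hosts in each group and the highest sum of snoRNA hosts.

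SNHG29, which hosts SNORD49A, SNORD49B and SNORD65 (chr17:16438822-16478678, plus strand), was the most abundant member. It had 273, 298 and 304 CPM in pre-dose libraries and 280, 292 and 283 CPM in untreated libraries. GAS5 followed at a mean of 95.5 CPM over the 6 libraries, then SNHG16 at 70.3 CPM, SNHG3 at 64.2 CPM, SNHG14 at 61.4 CPM and MIR4435-2HG at 60.9 CPM. Per kb of annotated exon, SNHG29 was again highest at 76.7 CPM per kb, followed by SNHG19, the host of SNORD60, at 53.5 CPM per kb and MIR31HG at 38.6 CPM per kb. MIR29B2CHG, the host of miR-29b and miR-29c, was lowest at 0.102 CPM per kb, and MIR34AHG lay at rank 43 of 48 with 0.467 CPM per kb. The order depends on the length used. SNHG14 had 1.42 CPM per kb over the 43324 bases of all its annotated exons but 56.5 CPM per kb over its median transcript.

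**Figure D1:**
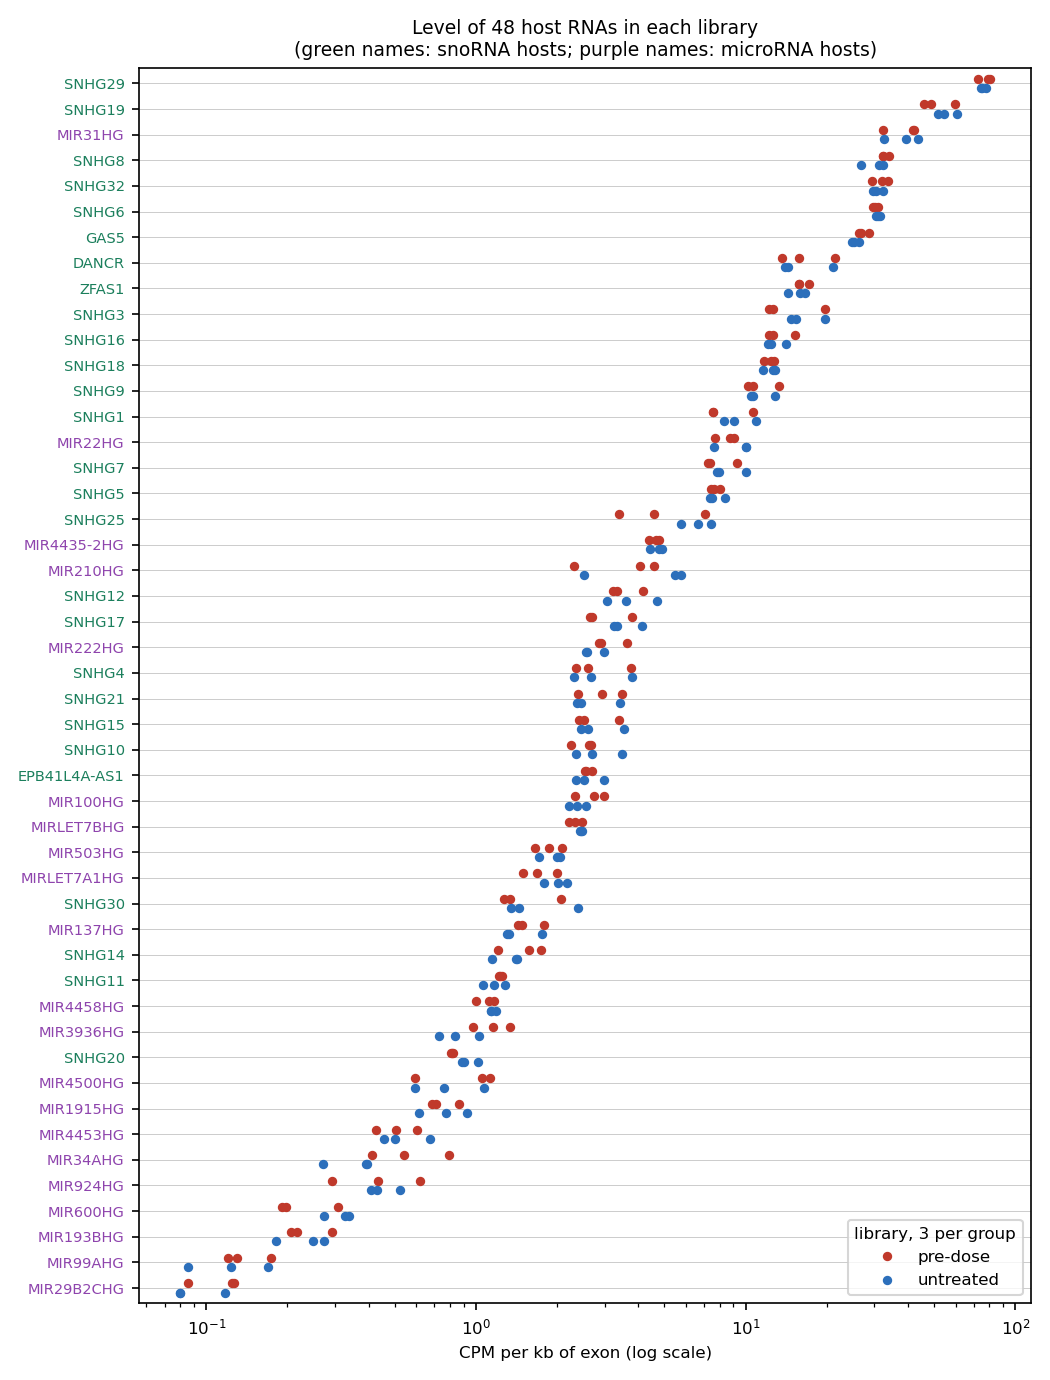
Level of each of the 48 host RNAs in each library, in CPM per kb of annotated exon on a log axis, with pre-dose libraries in red above untreated libraries in blue. SNHG29 is highest at a mean of 76.7 CPM per kb, MIR31HG is the only microRNA host among the 14 highest, and the points of the groups lie side by side for nearly all members.

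Exons of several members overlap exons of other genes in GENCODE release 29, and the strand setting of the counting is not given in the sources used here, so reads from the shared stretches cannot be assigned from the table. The shared part was 5.9% of the exons of SNHG3 (with RCC1, same strand), 7.6% of SNHG20 (SEC14L1, same strand), 14.0% of SNHG4 (MATR3, same strand), 11.1% of ZFAS1 (ZNFX1, opposite strand) and 40.7% of MIR31HG (the pseudogene IFNWP19, opposite strand). It was 30.6% of SNHG16 (AC015802.6, opposite strand), 23.2% of SNHG32 (AL671762.1, same strand) and 20.1% of SNHG10 (GLRX5, opposite strand). It was 12.0% of SNHG29 for the opposite-strand LRRC75A and 0.5% of SNHG14 for the opposite-strand UBE3A. Over the 6 libraries SEC14L1 averaged 204 CPM, ZNFX1 130 CPM, MATR3 66.6 CPM, GLRX5 29.7 CPM and UBE3A 68.7 CPM, each above its member. SNHG20 averaged 5.32 CPM and SNHG4 13.0 CPM. RCC1, at 64.1 CPM, lay close to SNHG3. Below their members lay AL671762.1 at 25.2 CPM, AC015802.6 at 1.06 CPM, LRRC75A at 2.76 CPM and IFNWP19 at 2.81 CPM. DPYD, at 44.5 CPM, shares 6.9% of the MIR137HG exons on the same strand, and MIR137HG averaged 10.8 CPM. How far shared reads enter the members' values was not tested.

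Across all 3 replicates, no member passed the threshold of an adjusted p of 0.05 between pre-dose and untreated cells in limma's trend test on log2(CPM + 1), and neither did any of the 13616 genes tested (0% called). At an unadjusted p under 0.05, 1 of 48 members (2.08%) and 280 of all genes (2.06%) were counted, and the member was MIR34AHG, one of the 1.25% of all genes that were higher at this level; 0.808% were lower, with no member among them. These counts moved with the libraries used: without pre-dose replicate 1 they were 8 members and 1385 genes, 2 members and 611 genes without untreated replicate 1, and 1 or 2 members and 95 to 121 genes without any of the other four. The log2 differences of the 48 members, pre-dose minus untreated, ran from -0.28 to 0.55, with a median of -0.01 for the members and of -0.00 for all genes tested. Their standard errors ran from 0.06 to 0.33. The same sign in all 3 same-numbered pairs of libraries was seen for 23 of 48 members (47.9%), against 31.9% of all genes. It was higher after the pre-dose in 10, against 15.6% of all genes, and lower in 13, against 16.3%. Pre-dose and untreated libraries did not overlap for 2 members (4.17%), against 6.55% of all genes. They were MIR34AHG above (3.36% of all genes) and SNHG20 below (3.19%). With the replicate number as a block no member and no gene passed the threshold (0% called), and an unadjusted p under 0.05 was found for 9 members (18.8%), against 10.6% of all genes. Of the 9, MIR34AHG, SNHG14, MIR100HG, MIR3936HG and GAS5 were higher after the pre-dose, against 5.2% of all genes, and SNHG3, SNHG17, MIR210HG and SNHG1 were lower, against 5.4%. Voom with library quality weights called 0 members and 0.793% of all genes.

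**Figure D2:**
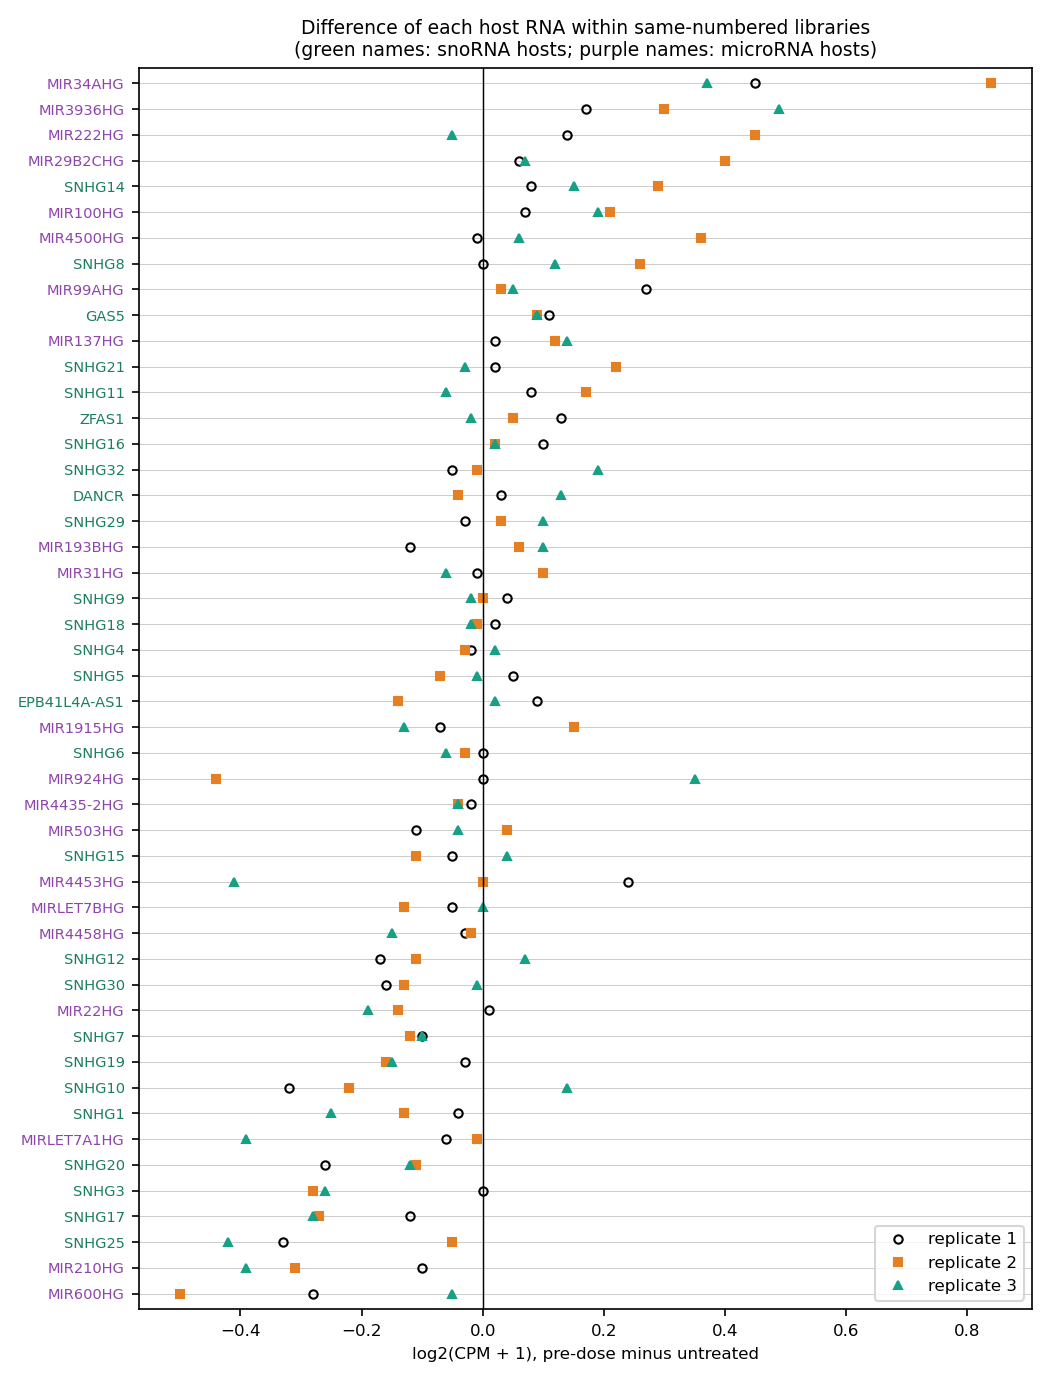
Difference of each host RNA between the pre-dose and the untreated library of the same replicate number, on the log2(CPM + 1) scale, 1 symbol per replicate. MIR34AHG is the top row with 0.45, 0.84 and 0.37 in replicates 1, 2 and 3, and 27 of the 48 members lie within 0.2 of 0 in every pair.

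In replicates 2 and 3 alone, 4 of 48 members (8.33%) passed the threshold, against 866 of 13616 genes (6.36%) in this comparison of 2 libraries with 2. MIR34AHG and SNHG14 were higher after the pre-dose (2 members, 4.17%, against 2.89% of all genes) and SNHG3 and MIR210HG were lower (2 members, 4.17%, against 3.47%). The authors' deposited table lists none of the 48 members past an adjusted p of 0.05, against 418 of its 13696 genes (3.05%). An unadjusted p under 0.05 was listed in the authors' deposited table for 16 members (33.3%), against 23.3% of all genes. Of these, the authors' deposited table had 7 members higher after the pre-dose, against 12% of all genes, and 9 lower, against 11.2% of all genes.

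MIR34AHG (chr1:9148011-9198906, minus strand) hosts miR-34a, a textbook p53 target that represses messenger RNAs of cell cycle genes such as CDK6. It had 3.58, 6.91 and 4.69 CPM in pre-dose libraries and 2.36, 3.43 and 3.40 CPM in untreated libraries. Every pre-dose library lay above every untreated library, and each replicate 1 library was the lowest of its group. The difference was 0.55 on the log2(CPM + 1) scale (95% interval 0.05 to 1.05), with an unadjusted p of 0.0346 and an adjusted p of 1.00 from limma. It was 0.34 (unadjusted p 0.0952) without pre-dose replicate 2, 0.42 (unadjusted p 0.109) without untreated replicate 1 and 0.74 (unadjusted p 0.00657) without pre-dose replicate 1, by limma in each case. In replicates 2 and 3 alone it was 0.60 (95% interval 0.27 to 0.94, limma adjusted p 0.0403). These values rest on 69 to 208 estimated reads per library. The other p53 target shown here besides CDKN1A, MDM2, had 57.5, 96.0 and 83.1 CPM in pre-dose libraries and 50, 58.1 and 55.0 CPM in untreated libraries. In both, as in MIR34AHG, the pre-dose library of replicate 2 was the highest of the 6. The same held for SNHG14, MIR100HG, MIR222HG, MIR3936HG and ZFAS1, among other members. Whether p53 has a part in the MIR34AHG values was not tested.

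MIR210HG (chr11:565660-568457, minus strand) hosts miR-210, the microRNA best known as a target of hypoxia-inducible factors. It was named after its values were seen. It had 5.36, 10.6 and 9.41 CPM in pre-dose libraries and 5.82, 13.4 and 12.7 CPM in untreated libraries. Within each replicate number the pre-dose library was the lower, while across replicates the groups overlapped because both replicate 1 libraries were the lowest of the 6. The difference over all libraries was -0.27 (95% interval -1.05 to 0.51, limma adjusted p 1.00). It was -0.35 in replicates 2 and 3 alone (95% interval -0.55 to -0.16, limma adjusted p 0.0395).

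MIR100HG (chr11:122028327-122556721, minus strand) carries MIR100, MIRLET7A2 and MIR125B1, a cluster conserved in animals, and MIR10526. It had 45.1, 57.9 and 52.9 CPM in pre-dose libraries and 42.9, 49.8 and 46.1 CPM in untreated libraries. The pre-dose library was the higher in each pair, and the groups overlapped. The difference was 0.16 (95% interval -0.08 to 0.40) and in replicates 2 and 3 alone 0.20 (95% interval 0.08 to 0.33, limma adjusted p 0.0600). With the replicate number as a block in those 4 libraries it passed the threshold, at a limma adjusted p of 0.0126. That fit rests on a pairing within replicates 2 and 3 that neither the labels nor the correlations between libraries bear out.

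The other hosts with a let-7 seed in RefSeq did not pass in any fit of the pre-dose comparison. Their differences were -0.15 for MIRLET7A1HG, -0.07 for MIR4458HG, -0.06 for MIRLET7BHG, 0.11 for MIR99AHG and 0.14 for MIR4500HG. MIR22HG, which carries miR-22 and has been described as a stress-responsive host, had 23, 27.0 and 26.1 CPM in pre-dose libraries and 22.8, 29.9 and 29.9 CPM in untreated libraries. Its groups overlapped, and both untreated libraries of replicates 2 and 3 lay above every other library. MIR31HG, whose RNA has been linked to senescence, had 24.0, 31.4 and 31.0 CPM in pre-dose libraries and 24.2, 29.3 and 32.5 CPM in untreated libraries, a difference of 0.01 (95% interval -0.32 to 0.34). MIR222HG, host of the pair that represses CDKN1B, had 8.07, 10.1 and 7.94 CPM in pre-dose libraries and 7.21, 7.12 and 8.29 CPM in untreated libraries, and its groups overlapped. MIR4435-2HG, the most abundant microRNA host, had 57.4, 62.4 and 60.9 CPM in pre-dose libraries and 58.1, 64.2 and 62.7 CPM in untreated libraries, a difference of -0.03 (95% interval -0.19 to 0.12).

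MIR3936HG (chr5:132311285-132369916, minus strand) had the second-smallest p among the members. Its level was 2.99, 4.10 and 3.54 CPM in pre-dose libraries and 2.56, 3.14 and 2.23 CPM in untreated libraries. Pre-dose replicate 1 lay below untreated replicate 2, so the groups overlapped, and the pre-dose library was the higher in each pair. The difference was 0.32 (95% interval -0.01 to 0.64, unadjusted p 0.0530, limma adjusted p 1.00). SLC22A4 and SLC22A5, which share 7.7% and 2.4% of its exons on the opposite strand, differed by -0.02 and -0.04. MIR600HG lay at the other end, with 1.18, 1.14 and 1.85 CPM in pre-dose libraries and 1.64, 2.03 and 1.96 CPM in untreated libraries and a difference of -0.28 (95% interval -0.61 to 0.06). STRBP, which shares 4.2% of the MIR600HG exons on the same strand, moved the same way, by -0.22 (95% interval -0.50 to 0.06). In replicates 2 and 3 alone STRBP differed by -0.33 (95% interval -0.54 to -0.12). The part of shared reads in the MIR600HG values was not tested.

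Among the snoRNA hosts, SNHG14 (chr15:24978583-25419462, plus strand) had 52.4, 75.2 and 68.2 CPM in pre-dose libraries and 49.6, 61.5 and 61.2 CPM in untreated libraries. Pre-dose replicates 2 and 3 exceeded all untreated libraries, and pre-dose replicate 1 lay below untreated replicates 2 and 3. The difference was 0.17 (95% interval -0.17 to 0.51). In replicates 2 and 3 alone it was 0.22 (95% interval 0.11 to 0.33, limma adjusted p 0.0275). SNRPN, a coding gene of the same imprinted region that shares 0.3% of the SNHG14 exons, differed by 0.03 in those libraries (95% interval -0.07 to 0.13). The difference for UBE3A, whose paternal copy is silenced in neurons by a transcript of this region, was -0.07 in the same libraries (95% interval -0.17 to 0.03).

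SNHG3 (chr1:28505980-28510892, plus strand) hosts SNORA73A and SNORA73B, printed above, which take part in ribosomal RNA processing. It had 80.2, 51.8 and 50 CPM in pre-dose libraries and 80.4, 62.9 and 60.0 CPM in untreated libraries. The replicate 1 libraries had nearly the same level, while in replicates 2 and 3 both pre-dose libraries lay below both untreated libraries. The difference over all 6 libraries was -0.18 (95% interval -0.63 to 0.27) and in replicates 2 and 3 alone -0.27 (95% interval -0.37 to -0.16, limma adjusted p 0.00731). RCC1, which lies downstream and shares exon sequence with SNHG3, had 79.1, 49.7 and 58.5 CPM in pre-dose libraries and 82.8, 56.1 and 58.5 CPM in untreated libraries. Its difference in replicates 2 and 3 alone was -0.09 (95% interval -0.23 to 0.06).

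SNHG17, host of the SNORA71 family (chr20:38420588-38435353, minus strand), and SNHG1 lay on the same side without passing the threshold in any fit. SNHG17 had 15.8, 11.1 and 11.3 CPM in pre-dose libraries and 17.3, 13.6 and 13.9 CPM in untreated libraries, and in replicates 2 and 3 alone a difference of -0.27 (95% interval -0.44 to -0.10, limma adjusted p 0.0619). SNHG1 had 40.0, 28.3 and 28.4 CPM in pre-dose libraries and 41.1, 31.2 and 33.9 CPM in untreated libraries, and in replicates 2 and 3 alone a difference of -0.19 (95% interval -0.32 to -0.06, limma adjusted p 0.0841). In both the pre-dose library was the lower of each pair, and the groups overlapped through replicate 1.

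GAS5, first described as a gene whose RNA accumulates in growth-arrested cells (chr1:173863900-173868882, minus strand), had 104, 97.2 and 95.4 CPM in pre-dose libraries and 95.8, 91.3 and 89.8 CPM in untreated libraries. The pre-dose library was the higher in each pair by 0.11, 0.09 and 0.09 on the log2 scale, and the groups overlapped only through pre-dose replicate 3 and untreated replicate 1. The difference was 0.10 (95% interval -0.04 to 0.24, unadjusted p 0.148, limma adjusted p 1.00). In replicates 2 and 3 alone it was 0.09 (95% interval 0.00 to 0.17, limma adjusted p 0.211).

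**Figure D3:**
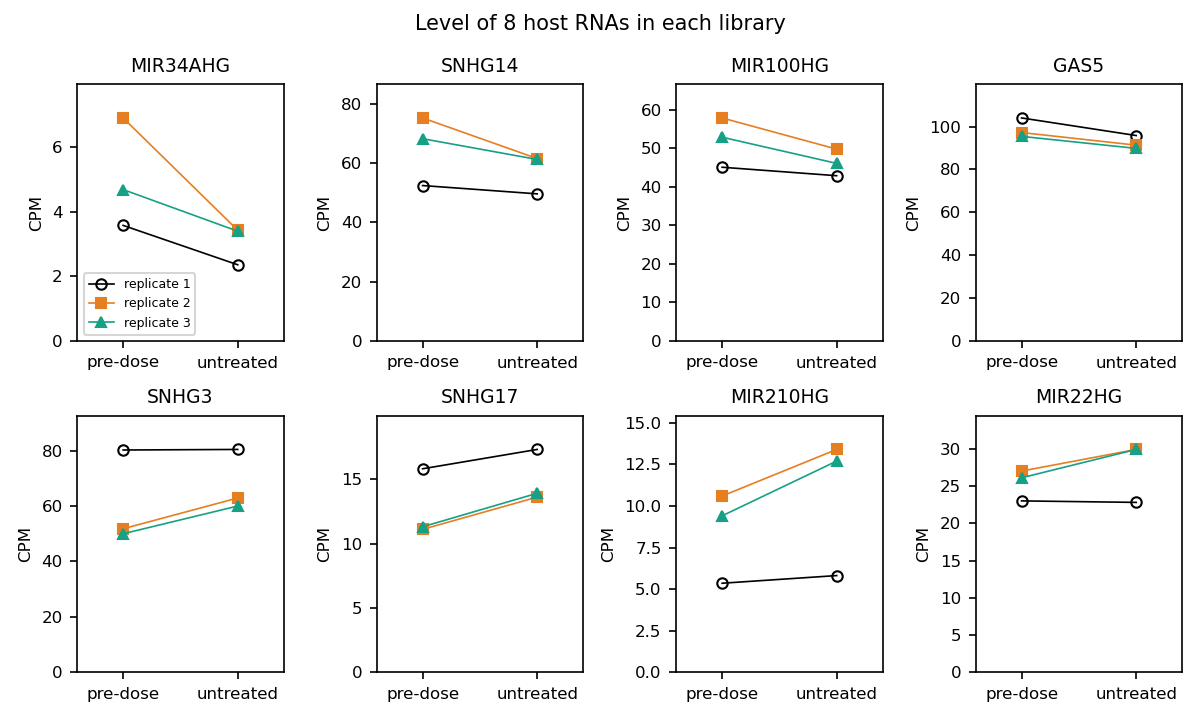
Level in CPM of 8 host RNAs in pre-dose and untreated libraries, with lines joining libraries of the same replicate number and axes starting at 0. In MIR34AHG, SNHG14, MIR100HG and GAS5 the pre-dose point is the higher in each of 3 pairs, while in SNHG17 and MIR210HG it is the lower in each; the replicate 1 lines of SNHG3 and MIR22HG are nearly level.

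ZFAS1, an antisense neighbour of ZNFX1 and host of the SNORD12 family, had 35.5, 38.6 and 35.4 CPM in pre-dose libraries and 32.3, 37.1 and 35.8 CPM in untreated libraries, a difference of 0.06 (95% interval -0.12 to 0.23). DANCR, host of SNORA26 and known for holding back differentiation of progenitor cells, had 49.1, 31.1 and 36.0 CPM in pre-dose libraries and 48.2, 32.1 and 32.9 CPM in untreated libraries, a difference of 0.04 (95% interval -0.44 to 0.52). EPB41L4A-AS1, host of SNORA13, had 8.45, 9.03 and 8.54 CPM in pre-dose libraries and 7.86, 10.0 and 8.39 CPM in untreated libraries, a difference of -0.01 (95% interval -0.25 to 0.23). The groups overlapped for all 3, and their intervals reach from a decrease to an increase.

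Of the remaining abundant snoRNA hosts, SNHG29 differed by 0.03 (95% interval -0.11 to 0.17), SNHG16, host of SNORD1A to SNORD1C, by 0.05 (95% interval -0.19 to 0.28), and SNHG32, host of SNORD48 and SNORD52, by 0.04 (95% interval -0.13 to 0.21). SNHG8, host of SNORA24, had 29.9, 29.7 and 31.4 CPM in pre-dose libraries and 29.8, 24.7 and 28.8 CPM in untreated libraries, a difference of 0.13 (95% interval -0.07 to 0.33). Its groups overlapped by a narrow margin. SNHG20, host of SCARNA16, had 5.00, 4.90 and 4.98 CPM in pre-dose libraries and 6.19, 5.39 and 5.49 CPM in untreated libraries. All untreated libraries lay above all pre-dose libraries, with a difference of -0.16 (95% interval -0.37 to 0.04, unadjusted p 0.103). SNHG25, host of SNORD104, had a difference of -0.26 (95% interval -0.67 to 0.14) on 28 to 59 estimated reads per library, and SNHG19 had -0.11 (95% interval -0.38 to 0.15). The members not described so far lay between -0.13 (SNHG10) and 0.18 (MIR29B2CHG), and none of them passed the threshold.

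More members passed the threshold between replicate 1 and the other replicates than between pre-dose and untreated cells, but the counts are unlike measures. Replicate 1 was singled out because its libraries stood apart in these same data, so many calls were to be expected. The main pre-dose fit had no replicate term, so the spread it was tested against included this separation. With the treatment in the model, 22 of 48 members (45.8%) passed an adjusted p of 0.05 between replicate 1 and replicates 2 and 3, against 40.8% of all genes tested, in a test that has 2 libraries against 4. Of these, 14 were higher in replicate 1 (29.2%, against 20.3% of all genes) and 8 were lower (16.7%, against 20.6%). The classes lay on different sides: 13 of the 27 snoRNA hosts were higher and 1, SNHG14, was lower, with a median of 0.24 over the class. Of the 21 microRNA hosts 1, MIR137HG, was higher and 7 were lower, with a median of -0.11. The median over all genes tested was -0.01. The difference between the classes was not tested, and no label names what distinguishes replicate 1.

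The largest excess in replicate 1 was that of SNHG4, host of SNORA74A, with 16.8 and 17.0 CPM in the pre-dose and untreated libraries of replicate 1, against 10.3 to 11.9 CPM in the other four. This is a difference of 0.57 (95% interval 0.39 to 0.75, limma adjusted p 0.000476). DANCR was higher in replicate 1 by 0.55 (95% interval 0.41 to 0.68), SNHG3 by 0.51 (95% interval 0.38 to 0.65) and SNHG1 by 0.41 (95% interval 0.28 to 0.53). The largest deficit was that of MIR210HG, with 5.36 and 5.82 CPM in replicate 1 against 9.41 to 13.4 CPM in the other four, a difference of -0.91 (95% interval -1.11 to -0.71). MIR4500HG differed by -0.53, MIR34AHG by -0.47, SNHG14 by -0.37 and MIR31HG by -0.35. GAS5 did not pass, at 0.09 (95% interval 0.01 to 0.17, limma adjusted p 0.0622), and neither did SNHG29, at -0.09. SNHG4 and MIR4500HG were named after their values were seen.

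**Figure D4:**
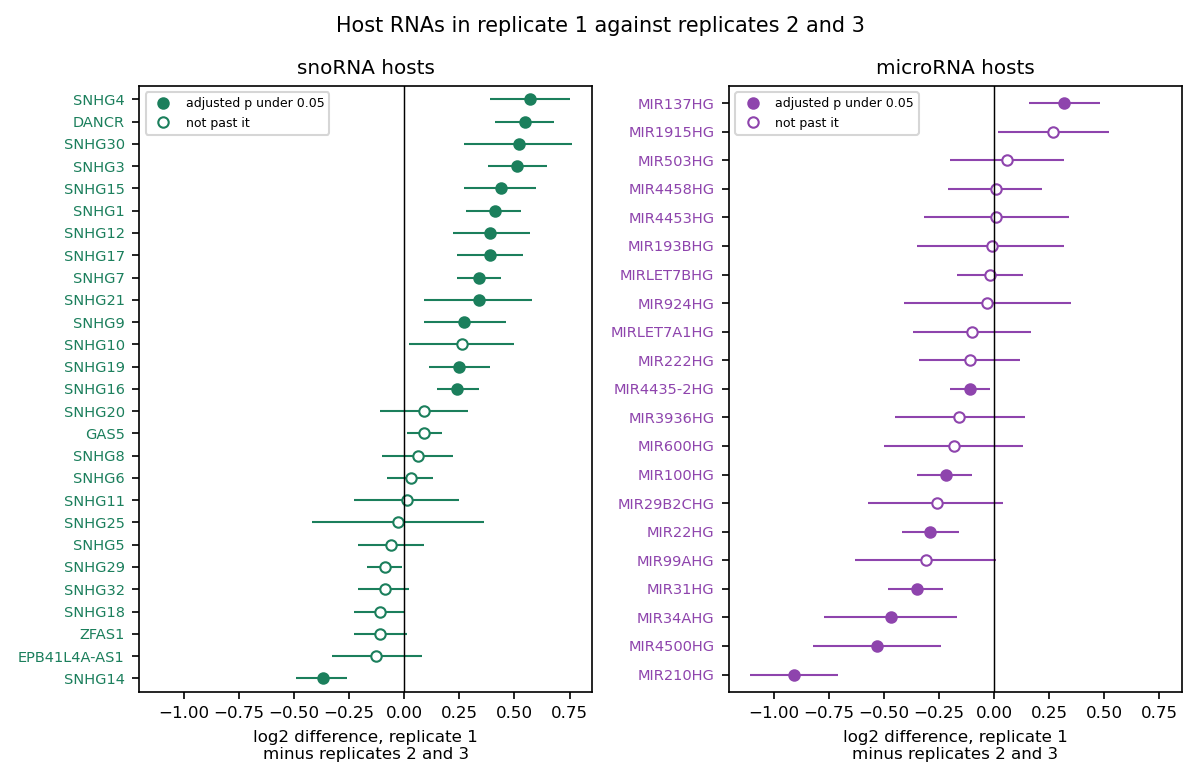
Difference of each host RNA between replicate 1 and replicates 2 and 3 on the log2(CPM + 1) scale, with 95% intervals, for 27 snoRNA hosts (left) and 21 microRNA hosts (right); filled points passed an adjusted p of 0.05 over all genes. 13 filled snoRNA hosts lie right of 0 and 1 left of it, whereas 7 filled microRNA hosts lie left of 0 and 1 right of it.

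Many genes that make, use or degrade these RNAs also differed in replicate 1. Of 19 snoRNP core and assembly genes, 11 were higher in replicate 1 and none lower, with a median of 0.18. Among them FBL, the box C/D methyltransferase, had 110 and 111 CPM in the pre-dose and untreated libraries of replicate 1 and 71.9 to 83.0 CPM in the others. DKC1, the box H/ACA pseudouridine synthase, had 70.1 and 72.8 CPM in replicate 1 and 45.0 to 55.7 CPM in the others. Of 15 genes of nonsense-mediated decay, 8 were higher and none lower, among them UPF1, the helicase at its centre, with 198 CPM in both replicate 1 libraries and 160 to 167 CPM in the others. Of 17 protein-coding snoRNA hosts outside the ribosomal proteins, 11 were higher and 2 lower, the list sharing DKC1 and NOP56 with the snoRNP genes. Of 15 microRNA processing and Argonaute genes, 5 were higher, DROSHA and DGCR8 included, and 4 were lower, DICER1 included. The same contrast called 20.3% of all genes higher and 20.6% lower. The part that these genes have in the levels of the host RNAs was not tested.

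Between pre-dose and untreated cells none of the genes in these 4 lists passed the threshold over all libraries, as none did among all genes. The median differences were -0.05 for snoRNP genes, -0.00 for nonsense-mediated decay, -0.01 for microRNA processing and 0.01 for coding snoRNA hosts, against -0.00 for all genes. At an unadjusted p under 0.05 there was 1 of the 64 distinct genes (1.56%), against 2.06% of all genes. It was ZNHIT6, a box C/D assembly factor, with 23.1, 22.6 and 23 CPM in pre-dose libraries and 20.2, 21.4 and 18.8 CPM in untreated libraries, a difference of 0.18 (unadjusted p 0.0411). The groups did not overlap for 4 of the 64 genes (6.25%), against 6.55% of all genes, with ZNHIT6, SMG6 and SMG8 above and NUFIP1 below.

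In replicates 2 and 3 alone, 4 of the 64 genes (6.25%) passed the threshold, against 6.36% of all genes, a share near the background. DKC1 was lower, with 45.0 and 48.3 CPM in pre-dose libraries and 55.4 and 55.7 CPM in untreated libraries, a difference of -0.25 (limma adjusted p 0.0139). AGO2, the Argonaute that cleaves its targets, was lower, with 71.4 and 75.3 CPM in pre-dose libraries and 85 and 83.7 CPM in untreated libraries, a difference of -0.20 (limma adjusted p 0.0205). TNRC6B, a partner of Argonaute in silencing, was higher by 0.17 (limma adjusted p 0.0325), and EIF4A2, a translation factor gene that hosts snoRNAs, was higher by 0.17 (limma adjusted p 0.0263). No gene of nonsense-mediated decay passed there.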

How the data were processed

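The authors deposited a single table with log2 values of CPM (counts scaled to an effective library total, with a prior added) for 6 libraries and 13696 distinct genes, after 77 repeated rows were dropped. Beside them stand the authors' own log2 fold changes, a moderated statistic that is a score, and raw as well as adjusted p-values from the authors' comparison. Per the submitters' processing notes the build was hg38 and the tools were bcl2fastq, DRAGEN, limma and edgeR, with neither versions nor roles. How reads were counted, and on which strand, is not given in the sources used here. Deposited fold changes run untreated minus pre-dose and were turned round.

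CPM was taken as 2 to the power of the deposited value. Summed over the listed genes it came to 993377 to 1009238 per library, so the scaling was not to the plain library total. Effective totals were read from the lowest value of each column, taken as 0 counts plus a prior of 0.5; of the values under 200 reads, 53.0 to 55.8% came out whole, so these are estimated counts and no count test was run on them as whole reads. Groups and replicate numbers came from the sample titles. limma's trend test (limma 3.58.1, R 4.3.3) ran on log2(CPM + 1) over all 6 libraries, two-sided, for the 13616 genes that averaged 1 CPM or more. The pseudocount of 1 CPM makes differences of low genes smaller. P-values were adjusted over all genes tested by the Benjamini-Hochberg method, with a threshold of 0.05. In simulated data with the real means and 13616 genes, this comparison recovered 42% of changes of 0.5 and 89% of changes of 1 on the log2 scale, with 8 false calls. The simulated noise was independent between genes and between libraries, without the shift that the replicate 1 libraries share. The recovery in the real libraries therefore cannot be read from these shares.

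The members and the gene lists were chosen with earlier results of these data known. The named members were GAS5, ZFAS1, DANCR, EPB41L4A-AS1, SNHG1, MIR17HG, MIR22HG, MIR34AHG, MIR31HG and MIR100HG where measured (MIR17HG was not among the listed genes), the 8 of highest mean CPM, any with an adjusted p under 0.05 in the authors' own comparison (none), and the 6 of smallest p in each direction. The groups share replicate numbers, and the labels state no pairing. Deviations from the group means correlated across genes at 0.66, 0.45 and 0.18 for same-numbered libraries. Crossed values were higher, at 0.51 for pre-dose replicate 2 with untreated replicate 3 and 0.28 for pre-dose replicate 3 with untreated replicate 2. Same-numbered libraries were treated as pairs, which these values bear out for replicate 1 but not within replicates 2 and 3. The counts over pairs and the fits with a block depend on this pairing. Positions, exon lengths and overlaps came from GENCODE release 29 on GRCh38, which held all 48 members. MicroRNA and start sequences, and the small RNAs within each host, came from RefSeq tables on GRCh38.p14. Figures were drawn with matplotlib 3.10.9. Alternatives were other pseudocounts, filters and scaling, the replicate block, replicates 2 and 3 alone, leaving out each library, and voom with and without library weights.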

Additional observations from a re-analysis of the deposited data

How the results depend on the processing

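Over all 6 libraries no member passed the threshold under any alternative pseudocount, filter, scaling or model, or without any single library. Of 379 alternative values for the 24 named members, 359 kept direction and side of the threshold, 7 passed it with the same sign (MIR34AHG, SNHG14 and SNHG3 in both fits of replicates 2 and 3, and MIR100HG with the block) and 13 changed sign, all on leaving out 1 library. These labels leave out size. On the deposited log2 values without a further pseudocount, differences of low members were larger, at 0.69 for MIR34AHG, 0.43 for MIR3936HG and -0.46 for MIR600HG. Those of the more abundant GAS5 (0.10) and SNHG1 (-0.14) were unchanged. With replicates 2 and 3 alone 4 members and 866 genes passed. Voom with library quality weights called 108 genes and 0 members.

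With the replicate block over all pairs, 0 members and 0 genes passed, and at an unadjusted p under 0.05 there were 9 members (18.8%) and 1443 genes (10.6%), with a median member difference of -0.008. With the block in replicates 2 and 3 alone, added after the data were seen, 5 members and 1227 genes passed, MIR100HG being the added member.

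The median difference of the members was -0.008, -0.013 with median-centred libraries, -0.017 with voom weights, and -0.032 to 0.008 on leaving out each library. Leaving out each library gave -0.14 to 0.22 for DANCR, -0.07 to 0.08 for EPB41L4A-AS1, -0.11 to 0.13 for MIR31HG, -0.07 to 0.00 for MIR4435-2HG, -0.05 to 0.11 for SNHG16, -0.00 to 0.10 for SNHG32 and -0.00 to 0.10 for ZFAS1. The cause of these moves was not tested. All 48 members passed the limit of 1 CPM, and 31 passed 5 CPM. The 22 members that differed between replicate 1 and the others became 15 to 21 without 1 library.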
